A study of Mus musculus with 2 samples.

Results

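The Mir1, Mir133 and Mir206 genes form 3 bicistronic clusters, in which 2 microRNAs (miRNAs) are cut from a shared primary transcript: Mir1a-1 with Mir133a-2, Mir1a-2 with Mir133a-1, and Mir206 with Mir133b. These 6 genes, out of 2202 miRNA genes in the tables, were taken by gene name. They were measured by microRNA-seq of total RNA in heart tissue (n = 2, replicates 1 and 2) from female mice aged 10 days. The 2 samples are called hearts below, and the labels do not say whether whole hearts were used. Both animals were B6CASTF1/J, first-generation offspring of a cross between C57BL/6J and CAST/EiJ, and the labels name neither a treatment nor a second tissue or age. The 2 hearts are separate biosamples of 1 group, so the 6 genes are described by their levels, by the ratios between them and by how far the hearts differed.

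miRNAs are short RNAs that guide Argonaute proteins to messenger RNAs, mainly by pairing of the seed, the bases near their 5′ end. miR-1 and miR-133 are known as the main miRNAs of striated muscle, where the factors SRF and MEF2 drive their clusters: miR-1 is known to favour muscle differentiation and to restrain growth of the heart, and miR-133 to restrain cell division and smooth muscle genes. The 3p arm of miR-206 has the seed of miR-1, and miR-206 is known, with miR-133b, from skeletal muscle and its regeneration. Each hairpin can yield a 5p and a 3p arm, and the 3p arm is the main product of these genes.

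The mature arms below are shown because their sequence sets which reads can be assigned to which gene. RefSeq sequences on GRCm38.p6 (mm10) were matched for 3 of the 6 genes. They are written 5′ to 3′, with the seed (bases 2 to 8) in capitals:
miR-206-3p: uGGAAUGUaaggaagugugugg
miR-206-5p: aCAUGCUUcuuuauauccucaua
miR-1a-1-5p: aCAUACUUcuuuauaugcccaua
miR-133b-3p: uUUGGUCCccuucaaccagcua
miR-133b-5p: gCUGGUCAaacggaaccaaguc
The 5p arms of Mir1a-1 and Mir206 were 23 bases long and identical at 20 of them (87.0%). Counted from the 5′ end of miR-1a-1-5p, the differences were A5G, G17C and C19U, of which the first lies in the seed. The arms of Mir206 and Mir133b had no such likeness, with 4 of 22 bases in common between the 3p arms.

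The whole hairpins of the Mir206 cluster are given with both mature arms in capitals, since this cluster had the sequences least shared with other genes:
Mir206: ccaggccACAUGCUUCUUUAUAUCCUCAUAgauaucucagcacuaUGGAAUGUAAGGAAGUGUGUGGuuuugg
Mir133b: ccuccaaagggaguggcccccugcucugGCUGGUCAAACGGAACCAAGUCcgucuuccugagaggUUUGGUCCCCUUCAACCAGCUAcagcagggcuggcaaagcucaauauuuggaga
Mir206 (73 bases) lies at chr1:20679010-20679082 and Mir133b (119 bases) at chr1:20682769-20682887, both on the plus strand, with 3686 bases between them. In the tables they carry the identifiers ENSMUSG00000065559.1 (Mir206) and ENSMUSG00000065480.1 (Mir133b). Both overlap Gm28653, an annotated lincRNA on the same strand. An exon of it covers all 119 bases of Mir133b and 60 of the 73 bases of Mir206.

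Mir206 shared no window of 22 bases, the usual length of a miRNA read, with any other miRNA hairpin, on either strand. Neither did Mir133b at that length. The first 21 bases of miR-133b-3p, however, also occur in both Mir133a hairpins, so that a read lacking only the last base of this arm matches 3 loci. The other 4 hairpins each held shared windows. By this measure 1032 of all 2202 miRNA genes (46.9%) had at least 1 window in common with another locus. Holding a shared window is therefore not particular to these genes. The measure takes any window, within a mature arm or not. It includes the 1434 genes that had no counts in either heart.

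The Mir1a hairpins shared their 3′ side only. Bases 45 to 72 of Mir1a-1, a run of 28 bases, were the same as bases 43 to 70 of Mir1a-2, and 7 of 56 windows of Mir1a-1 and 7 of 51 of Mir1a-2 lay in this run. The 5p arm of Mir1a-1 spans bases 10 to 32, outside it. The Mir133a hairpins shared both sides: a run of 24 bases (21 to 44 of Mir133a-2, 5 to 28 of Mir133a-1) and a run of 31 bases (54 to 84 and 38 to 68). Together these held 13 of 83 windows of Mir133a-2 and 13 of 47 of Mir133a-1, the largest share among the 6 genes at 27.7%. These shares count every window once, wherever reads fall, and are not shares of reads.

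**Figure D1:**
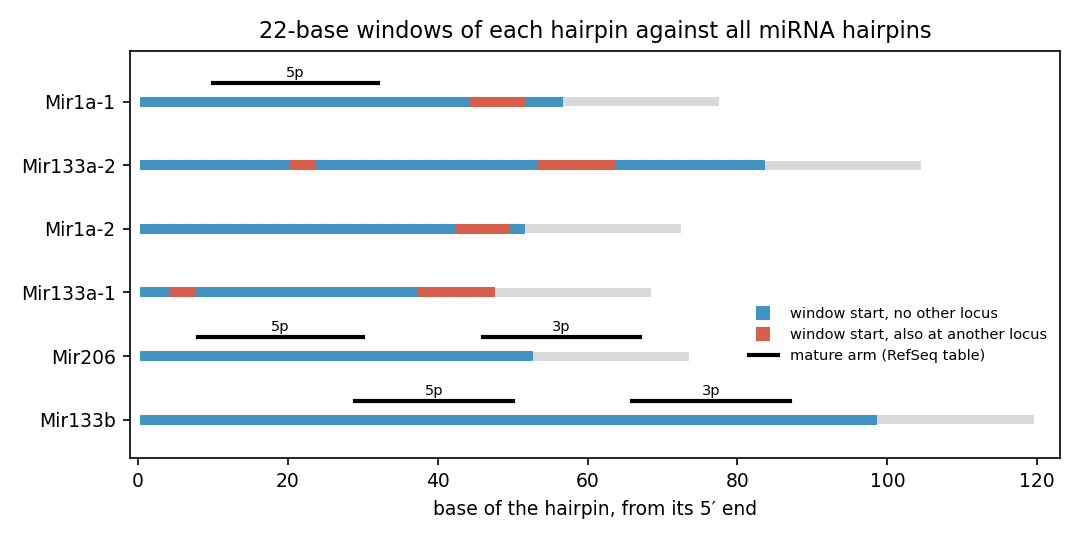
Windows of 22 bases along the 6 hairpins. The horizontal axis is the position from the 5′ end of the hairpin in bases, and squares mark where each window starts: blue where no other miRNA locus holds the same bases, red where another does. Black lines are the mature arms in the RefSeq table, and the grey bar is the hairpin. Mir206 and Mir133b have no red window, the Mir1a genes have 1 red stretch and the Mir133a genes 2.

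The tables bear on this through a category row. Reads placed at more than 1 position are counted there and assigned to no gene: 4193785 reads in replicate 1 (46.8% of its mapped reads) and 3872896 in replicate 2 (43.2%). Counts on named genes numbered 4260561 and 4583025. For each read counted on any of the 6 genes there were 12825 multimapping reads in replicate 1 and 10699 in replicate 2. How many of these came from miR-1 or miR-133 was not tested, because the row does not name genes. A read wholly within a run shared by the Mir133a or Mir1a hairpins matches both and is counted in this row, on neither gene. The start of the main arm of Mir133b, 21 bases, matches bases 43 to 63 of Mir133a-1 and 59 to 79 of Mir133a-2. Both stretches lie within shared runs (38 to 68 and 54 to 84). The main arms of the Mir133a and Mir1a genes were not among the sequences matched. The levels of Mir1a-1, Mir1a-2, Mir133a-1, Mir133a-2 and, for reads shortened at the 3′ end, Mir133b are therefore levels of uniquely placed reads and uncertain as levels of the miRNA. Mir206 is the member whose level does not carry this limit among the hairpins searched.

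All 6 genes were counted at low levels. Together they had 327 counts in replicate 1 and 362 in replicate 2, a share of 0.00768% (exact 95% Clopper-Pearson interval 0.00687 to 0.00855) and 0.00790% (0.00711 to 0.00876) of the counts on named genes. The mean share was 0.00779% ± 0.000158 (SD, n = 2), so the summed level differed little between the hearts. A count of 10 or more in each heart was reached by 5 of the 6 genes, Mir133a-2 being the exception, and by 346 of all 2202 genes. Levels below are CPM, the counts on the gene strand scaled to 1000000 counts on named genes in each library. A count of 0 would allow up to 0.704 CPM in replicate 1 and 0.655 CPM in replicate 2. The point values of all 6 genes lay above these limits in both hearts. The exact Poisson 95% interval of Mir133a-2 reached below them, to 0.517 CPM in replicate 1 and 0.238 CPM in replicate 2.

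Mir1a-2 (ENSMUSG00000106348.1), on chromosome 18 (10785481 to 10785552, minus strand, mm10), was the highest of the 6. It had 185 counts in replicate 1 and 245 in replicate 2, which are 43.4 CPM (exact Poisson 95% interval 37.4 to 50.2) and 53.5 CPM (47.0 to 60.6), and a mean of 48.4 ± 7.10 CPM (SD, n = 2). It ranked 196th in replicate 1 and 189th in replicate 2. Its cluster mate Mir133a-1 (ENSMUSG00000065399.2, 10782909 to 10782976, minus strand, 2504 bases away) had 33 counts (7.75 CPM, 5.33 to 10.9) in replicate 1 and 12 counts (2.62 CPM, 1.35 to 4.57) in replicate 2. The hearts differed more in Mir133a-1 than in any other member, and its 2 intervals do not overlap. Both genes lie in an intron of the host transcript Mir133a-1hg and, on the opposite strand, in an intron of Mib1, a ubiquitin ligase of the Notch pathway. This cluster held 66.7% (61.3 to 71.8) of the counts on the 6 genes in replicate 1 and 71.0% (66.0 to 75.6) in replicate 2.

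Mir206, the gene with the seed of miR-1, was second. It had 81 counts in replicate 1 (19.0 CPM, 15.1 to 23.6) and 70 in replicate 2 (15.3 CPM, 11.9 to 19.3), with a mean of 17.1 ± 2.64 CPM (SD, n = 2). The hearts were close for this gene, and the intervals overlap. Mir133b had 11 counts (2.58 CPM, 1.29 to 4.62) and 19 counts (4.15 CPM, 2.50 to 6.47), again with overlapping intervals. The cluster held 28.1% (23.3 to 33.3) and 24.6% (20.2 to 29.4) of the counts on the 6 genes. In this heart tissue, a lower number of cells that make a miRNA and less of it per cell cannot be told apart.

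The third cluster, Mir1a-1 (ENSMUSG00000070144.1, chromosome 2, 180389048 to 180389124, plus strand) and Mir133a-2 (ENSMUSG00000065460.1, 180398379 to 180398482, plus strand, 9254 bases away), was the lowest. Mir1a-1 had 11 counts in replicate 1 (2.58 CPM, 1.29 to 4.62) and 12 in replicate 2 (2.62 CPM, 1.35 to 4.57). Mir133a-2 had 6 counts (1.41 CPM, 0.517 to 3.07) and 4 counts (0.873 CPM, 0.238 to 2.24). Neither gene overlaps another gene in GENCODE M21. In RefSeq both lie within Mir1a-1hg (180385604 to 180401802), their host transcript. The cluster held 5.20% (3.06 to 8.19) and 4.42% (2.55 to 7.08) of the counts on the 6 genes, below both other clusters in each heart.

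By mean CPM of uniquely placed reads the order was Mir1a-2, Mir206, Mir133a-1, Mir133b, Mir1a-1 and Mir133a-2. They held ranks 198, 247, 309, 336, 355 and 434 of the 768 genes above 0. Mir1a-2 had 2.28 times the counts of Mir206 in replicate 1 (log2 ratio 1.19 with an exact interval of 0.81 to 1.59). In replicate 2 it had 3.50 times (1.80, interval 1.42 to 2.21), so these 2 places were the same in both hearts. Mir206 also stood apart from Mir133a-1, with CPM intervals that do not overlap in either heart. The next places were not settled. Mir133a-1 exceeded Mir133b 3-fold in counts in replicate 1 (33 against 11), while in replicate 2 Mir133b was the higher (19 against 12). Mir133b and Mir1a-1 had equal counts in replicate 1 and overlapping intervals in replicate 2, as had Mir1a-1 and Mir133a-2 in both hearts.

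**Figure D2:**
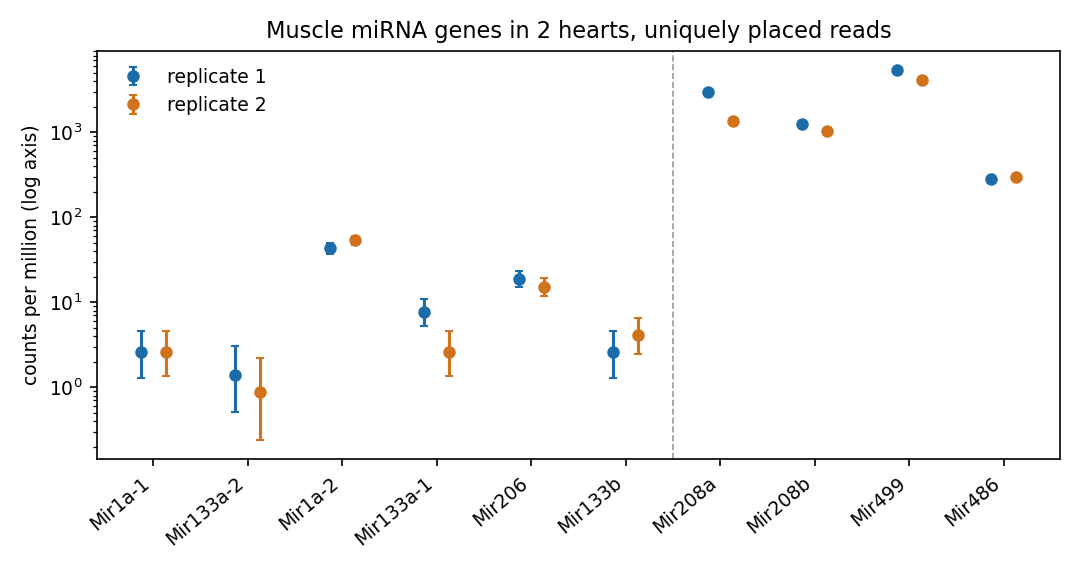
CPM (vertical axis, logarithmic) of the 6 genes, left of the dashed line, and of 4 other muscle miRNA genes, right of it. Points are single hearts, blue for replicate 1 and orange for replicate 2, and bars are exact Poisson 95% intervals, which cover counting error only. Mir1a-2 and Mir206 lie above the other members in both hearts, and all 6 lie below the 4 other genes. These are levels of uniquely placed reads, and any multimapping reads of these genes are left out.

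Other miRNA genes known from muscle were counted at higher levels of uniquely placed reads. Any multimapping reads of the members or of these genes are left out of this comparison, and their part was not tested. Mir499, which lies in a myosin gene and is known from slow and cardiac muscle, had 5442 CPM in replicate 1 and 4126 CPM in replicate 2. Mir208a, from the gene of the alpha myosin heavy chain of the heart, had 2957 and 1367 CPM. Mir208b, from the gene of the beta chain, had 1245 and 1043 CPM, and Mir486, which red blood cells also make, 281 and 298 CPM. Mir486 had 0 counts in the column without strand, so its level rests on the assignment of strand. All 4 were above Mir1a-2 in both hearts. The counts of Mir499 alone equal 0.553% of the multimapping reads of replicate 1 and 0.488% of those of replicate 2, while the counts of all 6 members equal 0.00780% and 0.00935%. The 3 markers of heart muscle (Mir499, Mir208a and Mir208b) held 0.964% and 0.654% of the counts, so the markers of the labelled tissue were present in both libraries.

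**Figure D3:**
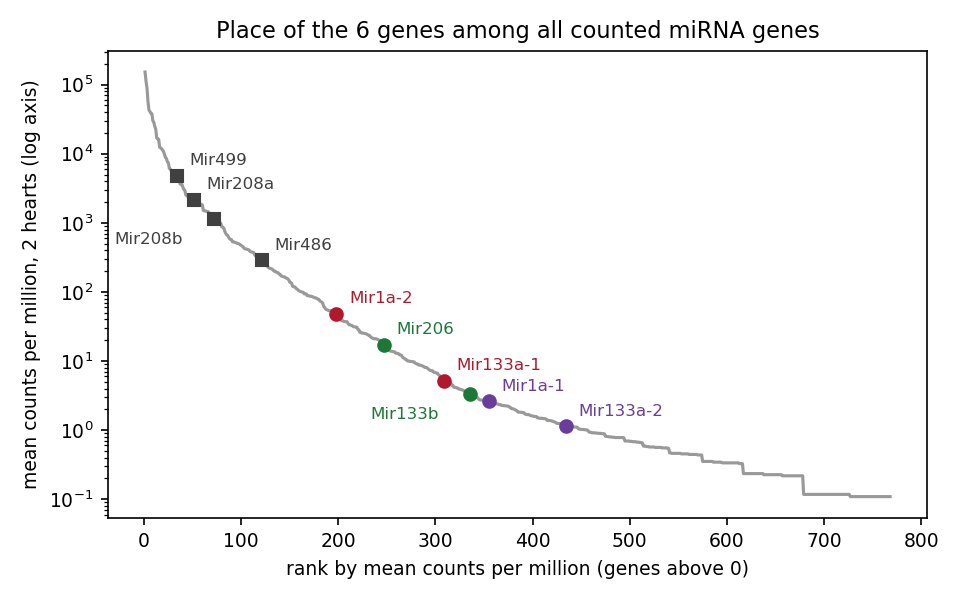
Mean CPM over the 2 hearts (vertical axis, logarithmic) against rank for the 768 miRNA genes above 0. Circles mark the 6 genes in a colour for each cluster, and squares the other muscle miRNA genes. The members lie between rank 198 and rank 434, and Mir499, Mir208a, Mir208b and Mir486 at ranks 34 to 121. All are levels of uniquely placed reads.

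Within a cluster both miRNAs come from 1 transcript, and their counts were compared inside each library, where scaling plays no part. A miRNA read spans the mature arm, so counts were not divided by hairpin length. In replicate 1, 185 counts of Mir1a-2 stood against 33 of Mir133a-1, a 5.61-fold excess (log2 ratio 2.47, interval 1.95 to 3.07). In replicate 2, 245 counts stood against 12, a 20.4-fold excess (4.30, interval 3.52 to 5.32). The 2 intervals do not overlap, so the ratio differed between the hearts by more than counting error. The column counted without strand, described below, reverses this ratio.

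Mir206 exceeded Mir133b 7.36-fold in replicate 1 (81 against 11 counts, log2 ratio 2.82, 1.97 to 3.94) and 3.68-fold in replicate 2 (70 against 19, 1.85, 1.13 to 2.70). Here the intervals overlap and both lie above 0. Mir1a-1 had more counts than Mir133a-2 in both hearts, but the intervals of the log2 ratio include 0: 0.82 (-0.69 to 2.59) from 11 against 6 counts, and 1.47 (-0.14 to 3.67) from 12 against 4. A difference within this cluster was not detectable at this depth. In all 3 clusters the Mir1 or Mir206 gene thus had more uniquely placed reads than the Mir133 gene in each heart. The difference was beyond counting error in 2 of the 3. The clusters are unlike in sharing: the Mir133a hairpins share stretches on both sides and the Mir1a hairpins on the 3′ side only. Mir1a-2 had 7 of 51 windows shared and Mir133a-1 13 of 47, Mir1a-1 7 of 56 and Mir133a-2 13 of 83. Mir206 and Mir133b had none at 22 bases, and Mir133b had 1 at 21 bases. The part of this in the ratios was not tested.

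Genes that yield the same or nearly the same miRNA can be set side by side in the same way. Mir1a-2 had 16.8 times the counts of its paralog Mir1a-1 in replicate 1 and 20.4 times in replicate 2 (log2 ratios 4.01, interval 3.20 to 5.10, and 4.30, interval 3.52 to 5.32). The ratio of these paralogs was alike in both hearts. The run they share holds 7 windows of each. Reads wholly within it are counted on neither gene, and which part of each hairpin the counted reads came from was not tested. Mir133a-1 had more counts than Mir133a-2 in replicate 1 (33 against 6, log2 ratio 2.37, interval 1.19 to 4.00), and in replicate 2 the interval of the log2 ratio (1.47, -0.14 to 3.67) includes 0. Mir206 had 7.36 and 5.83 times the counts of Mir1a-1, the gene whose 5p arm it resembles at 20 of 23 bases. This pair is unlike in sharing, with 0 of 52 windows of Mir206 and 7 of 56 of Mir1a-1 shared. The ratio is therefore one of uniquely placed reads and uncertain as a ratio of the miRNAs. Added over both Mir1a genes, the counts made up 59.9% of the counts on the members in replicate 1 and 71.0% in replicate 2, and those of both Mir133a genes 11.9% and 4.42%.

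**Figure D4:**
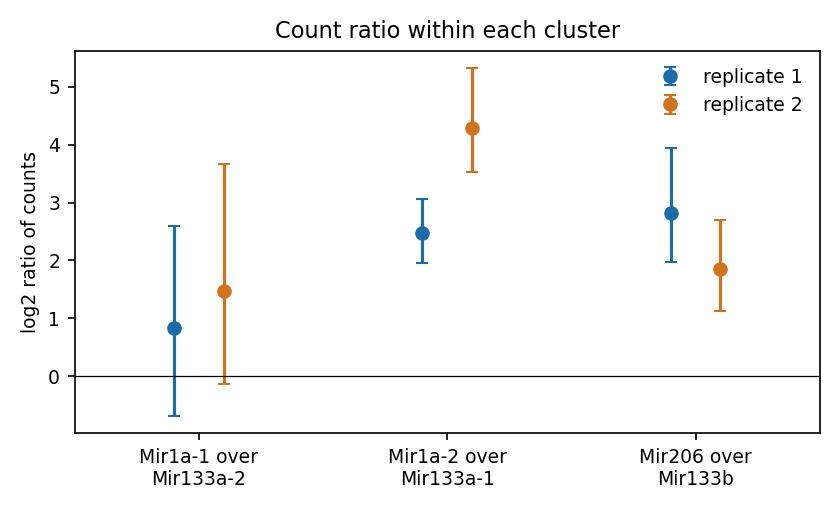
log2 ratio of counts between the mates of each cluster (vertical axis), with 1 point for each heart (blue for replicate 1, orange for replicate 2) and exact 95% intervals. For Mir1a-2 over Mir133a-1 the intervals of the hearts are separate, for the other clusters they overlap, and for Mir1a-1 over Mir133a-2 they include 0.

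The hearts were compared gene by gene with an exact two-sided binomial test of the counts, given library sizes scaled by the trimmed mean of M values (TMM). It compares these 2 libraries and covers counting error only. It was run on the 375 genes with 20 or more counts over both hearts, with Benjamini-Hochberg adjustment over all of them. Of these genes 207 (55.2%) passed at 0.05. Of the 6 members 5 were tested, Mir133a-2 having too few counts, and 2 passed. Since the test finds smaller differences at higher counts, genes with a summed count in the members' own range (23 to 430) give a closer background: 41 of 158 such genes (25.9%) passed.

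Mir133a-1 was lower in replicate 2, from 33 to 12 counts, a log2 ratio of -1.46 (exact 95% interval -2.59 to -0.51) with an adjusted p of 0.00326 in the exact binomial test. Mir1a-2, its cluster mate, was higher in replicate 2, from 185 to 245 counts, a log2 ratio of 0.37 (0.09 to 0.65) with an adjusted p of 0.0181 in the exact binomial test. With libraries scaled by their total counts, Mir1a-2 did not pass (adjusted p = 0.0585 in the exact binomial test, log2 ratio 0.30). The mates of this cluster thus lay on opposite sides of 0.

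The other members did not pass. The log2 ratio was -0.25 (-0.73 to 0.23) for Mir206, with an adjusted p of 0.390 in the exact binomial test. It was 0.72 (-0.40 to 1.97) for Mir133b and 0.08 (-1.22 to 1.41) for Mir1a-1. These intervals are wide: for Mir133b they hold no change as well as a 2-fold difference. The median size of the log2 ratio was 0.37 over the 5 members tested and 0.37 over all 375 genes.

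Markers of heart muscle and of other cells also differed between the hearts, and their part in the values above was not tested. Mir208a had a log2 ratio of -1.05, Mir499 of -0.33 and Mir208b of -0.19, so that all 3 heart muscle markers were lower in replicate 2. Of the members, Mir133a-1 (-1.46), Mir133a-2 (-0.57) and Mir206 (-0.25) had negative ratios. Mir1a-2 (0.37), Mir133b (0.72) and Mir1a-1 (0.08) had positive ones. Only the intervals of Mir133a-1 and Mir1a-2 do not include 0. The red blood cell genes Mir144 (2.64) and Mir451a (1.25), the endothelial Mir126a (0.74) and the liver gene Mir122 (0.95) were higher in replicate 2. The smooth muscle gene Mir143 was lower there (-0.54), and the log2 ratio of Mir145a was -0.02. Of the white blood cell genes, Mir142 had a ratio of 0.33, Mir150 of -0.06 and Mir223 of 0.12. On the gene strand, none of these markers was at 0 counts in either heart. Without strand, Mir451a and Mir142 had 0 counts in both hearts and Mir126a 10 and 48, so the levels of these 3 genes rest on the assignment of strand.

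**Figure D5:**
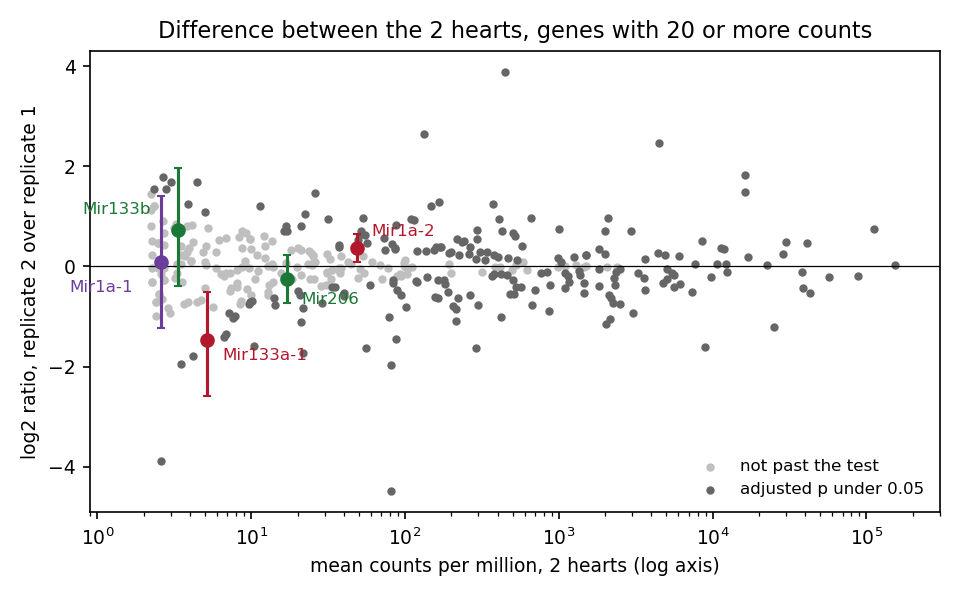
log2 ratio of replicate 2 over replicate 1 (vertical axis) against mean CPM (horizontal axis, logarithmic) for the 375 genes tested. Dark grey points passed the exact binomial test and light grey ones did not, and coloured points with exact 95% intervals are the 5 members tested. Mir133a-1 lies below 0 and Mir1a-2 above it, each with an interval that does not include 0.

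Strand decided whether Mir1a-2 was counted at all. Mir1b is annotated on the opposite strand of the same place (10785446 to 10785567, plus strand) and covers the whole of the Mir1a-2 hairpin, so without strand a read there belongs to both genes. The row of ambiguous reads held 1153617 reads in replicate 1 and 1474322 in replicate 2 without strand, and 0 with strand. In the column counted without strand Mir1a-2 and Mir1b both had 0 counts in each heart. With strand, Mir1b had 11 counts in replicate 1 and 3 in replicate 2, against 185 and 245 for Mir1a-2. The other 5 members had the same counts with and without strand and 0 counts on the opposite strand. Mir133c, on chromosome 2 (29475215 to 29475294, minus strand), which shares at most 16 bases in a row with a member, had 0 counts in both hearts.

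For each member tested, the 2 genes nearest in level were found by the Euclidean distance of log2(CPM + 0.5) over the 2 hearts. With 2 values a gene, this describes levels only. Nearest to Mir1a-2 were Mir29c (177 and 264 counts, distance 0.124) and Mir1193 (175 and 284, 0.226), and nearest to Mir206 were Mir677 (87 and 75, 0.139) and Mir701 (71 and 67, 0.195). Mir133a-1 had no close neighbour, with Mir205 (42 and 16, 0.485) and Mir200a (24 and 15, 0.508) next to it. Mir133b lay beside Mir1927 and Mir491, and Mir1a-1 beside Mir3474 and Mir5620.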

How the data were processed

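The authors deposited raw read counts per miRNA gene, 1 table per library, made on mm10 with GENCODE M21, per the file headers. Aligner and counter were not given in the sources used here. The columns were identified from the values. Every table has 3 count columns (without strand, gene strand, opposite strand) and 4 category rows, which were left out of library sizes. They held 60.5% of the reads in replicate 1 and 55.1% in replicate 2. All 2202 gene IDs were matched to M21.

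The gene-strand column was used. CPM were computed over counts on named genes. Ratios used a prior count of 0.5. TMM factors came from edgeR 4.0.16 and the alternative size factors from DESeq2 1.42.0 (R 4.3.3); tests and intervals came from scipy 1.17.1. With 2 hearts in 1 group, no p across animals was computed. Intervals and the limit of 3 counts for a count of 0 cover counting error only, as the labels mention no molecular identifiers. Shared windows were searched in all M21 miRNA hairpins, both strands, with genes at overlapping positions counted as 1 locus; the rest of the genome was not searched.

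Named genes were the members, genes sharing 20 or more bases with them or lying opposite them, 4 muscle genes, cell type markers and the 2 nearest genes by level. Mir133c was added for its name. Members, lists and rules were chosen with earlier results of these data known. Alternatives were the column without strand, other scalings, denominators, prior counts, count minimums and window lengths, counts per hairpin base and leaving out each heart.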

Additional observations from a re-analysis of the deposited data

Results flagged for a closer look

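Reads outside the gene counts were looked at where they exceeded 3 counts, the limit set by a count of 0. The multimapping row held 4193785 reads in replicate 1 and 3872896 in replicate 2, and the part of it that belongs to these genes was not tested. At Mir1a-2, 11 reads lay on the opposite strand in replicate 1 and 3 in replicate 2. They are the reads that the tables give to Mir1b on its own strand.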

How the results depend on the processing

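Leaving out a heart can move a mean over 2 hearts by less than 1 SD only, so those values say nothing of stability. Of 84 other values, 64 stayed within their limits, 19 moved and 1 changed sign. The limit was 1 SD of the replicates for CPM, shares of counts and ratios within clusters, an interval on the same side of 0 (or again including it) for ratios between hearts, the Clopper-Pearson interval for shares of windows, and 1.5 times for counts of calls. The share of the 6 genes was 0.00417% without strand, 0.00329% over all reads and 0.00919% without Mir378a, the most abundant gene. With both strands added, an alternative chosen after seeing the data, it was 0.00795%. Mir378a had 0 counts without strand in both hearts, so its place as most abundant gene rests on the assignment of strand. The log2 ratio of Mir1a-2 over Mir133a-1 was -5.36 without strand, because Mir1a-2 then has 0 counts, and 3.43 with both strands added. Per hairpin base, the log2 ratio of Mir206 over Mir133b was 3.05. With total counts, with a summed count of 100 or more, and without strand, 1 member passed between the hearts: Mir133a-1, Mir1a-2 (Mir133a-1 not being tested) and Mir133a-1. Of all genes tested, 56.8%, 71.4% and 53.1% passed there. The same 2 members passed as with TMM under DESeq2 size factors (52.0% of all genes) and with no count minimum (26.2%). The DESeq2 size factor was 1 for both libraries, so that setting compared the counts without scaling. The ratio between hearts of Mir1a-2 has no value without strand. No paired analysis was possible because the design has 1 group.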

Other observations

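The liver gene Mir122 had 325 and 646 counts in replicates 1 and 2 (76.3 and 141 CPM), above Mir1a-2 (43.4 and 53.5 CPM) in both hearts. This sets levels of uniquely placed reads side by side, and Mir1a-2 has a run of 28 bases in common with Mir1a-1.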
